A study of Rattus norvegicus with 6 samples.

Results

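The disaccharidases and sugar transporters examined here were 8 genes of the intestinal brush border and the fructose pathway behind it, namely Si, Lct, Mgam, Treh, Slc5a1, Slc2a2, Slc2a5 and Khk. They were found on the array by the RefSeq accession that each probe carries, and every probe of each gene was kept. Of the 8 genes, 6 were matched to 8 of the 41012 probes that are not controls, and Si and Mgam were not matched and were not analysed here. Lct and Slc2a2 had 2 probes each and the others 1. All 8 probes were well above background on all 6 arrays and all passed the filter on dim probes, and none was saturated.

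The data are gene expression profiles of the jejunum of male Sprague-Dawley rats aged 6 weeks and weighing 200 ± 20 g, measured on 1-colour Agilent rat arrays. The control group (3 arrays) was kept at 25°C and 60% relative humidity with free food and water, and the S3d group (3 arrays) came from the same housing and was then stressed for 2 h a day on 3 days by heat (35°C) and by shaking at 0.1 g. Whole jejunal tissue was used, and RNA of 3 rats was pooled for each array, so that the spread between arrays is a spread between pools. Fewer cells of a type and less RNA per cell cannot be told apart in such tissue.

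The 6 arrays differed in brightness. The 75th percentile of the processed signal lay between 414 and 430 on the control arrays and between 1456 and 1566 on the S3d arrays, a 3.60-fold difference, while the 10 probes for spike-in RNA, which is added to each sample with the labelling kit, differed by only -0.04 on the log2 scale. The 3 arrays of a group shared a slide, the scans of both slides lay 450 days apart, and slide, scan and group cannot be told apart. The array labelled S3d replicate 1 stood apart in 11 genes of the exocrine pancreas, a set chosen after its amylase signal was seen. These genes, among them Cpb1, Prss2 and Amy2a3, lay between 5.56 and 8.92 on that array and between -8.40 and 0.87 on the other 5 (log2 signal relative to the array's 75th percentile). All 18 markers of villus enterocytes on the array, the absorptive cells that carry these enzymes and transporters, were tested and are described with the members.

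All values below follow the group labels of the scanner files, and a difference is S3d minus control by those labels. The log2 values that the authors also deposited give the opposite direction. Each of their 6 columns ranks the probes as the scanner file with its replicate number but the opposite group label does (rank correlation 1.00 across probes), against 0.942 to 0.952 for the file of its own label. No sample was reassigned, so every direction given here turns around if the labels of those columns are the right ones.

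As background, dietary sugars are cut into single hexoses by disaccharidases anchored in the microvilli. Lactase (Lct) splits lactose and trehalase (Treh) splits trehalose. Glucose and galactose then enter the enterocyte with sodium through SGLT1 (Slc5a1), fructose enters through GLUT5 (Slc2a5), and GLUT2 (Slc2a2) carries all of these hexoses out to the blood. Ketohexokinase (Khk) phosphorylates fructose inside the cell. These genes are read in enterocytes under factors such as GATA4, CDX2 and, for the fructose genes, the carbohydrate-sensing factor ChREBP (Mlxipl).

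Promoter sequence in RefSeq was matched for 7 of the 8 genes. The 250 bases before the start of 4 members are shown because these genes went in opposite directions below: Lct and Slc2a5 were higher and Slc5a1 and Khk lower. The sequences are from the rat build GRCr8, 5′ to 3′ in the direction of the gene, for Lct at chr13:42376873-42377122 on the minus strand, for Slc2a5 at chr5:165865929-165866178 on the plus strand, for Slc5a1 at chr14:81843085-81843334 on the minus strand and for Khk at chr6:31175482-31175731 on the minus strand. Capitals mark every match, on either strand, to the GATA factor motif AGATAA, to TTTAT, a motif of CDX factors, or to the E-box CACGTG.
Lct: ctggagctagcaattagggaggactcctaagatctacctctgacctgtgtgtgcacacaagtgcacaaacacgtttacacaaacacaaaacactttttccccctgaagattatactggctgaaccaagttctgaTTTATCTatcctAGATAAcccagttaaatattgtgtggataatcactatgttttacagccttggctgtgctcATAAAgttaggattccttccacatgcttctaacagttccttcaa
Slc2a5: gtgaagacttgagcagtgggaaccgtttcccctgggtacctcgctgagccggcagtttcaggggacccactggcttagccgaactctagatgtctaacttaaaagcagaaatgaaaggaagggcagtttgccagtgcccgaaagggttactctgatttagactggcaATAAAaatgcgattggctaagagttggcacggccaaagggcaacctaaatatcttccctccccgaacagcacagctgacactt
Slc5a1: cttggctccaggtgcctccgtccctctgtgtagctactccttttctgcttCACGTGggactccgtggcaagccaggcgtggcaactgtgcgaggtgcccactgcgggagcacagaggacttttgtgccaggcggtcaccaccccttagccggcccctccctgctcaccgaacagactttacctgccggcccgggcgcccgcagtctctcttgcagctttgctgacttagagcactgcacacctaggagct
Khk: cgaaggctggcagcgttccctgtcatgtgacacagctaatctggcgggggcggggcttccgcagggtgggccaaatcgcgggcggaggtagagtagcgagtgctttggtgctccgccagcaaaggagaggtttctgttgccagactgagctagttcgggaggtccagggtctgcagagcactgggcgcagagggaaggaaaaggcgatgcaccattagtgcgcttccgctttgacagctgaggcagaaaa

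The Lct sequence held AGATAA 2 times and TTTAT 2 times, and 1 of the AGATAA matches overlaps a TTTAT match. The Slc2a5 sequence held TTTAT 1 time and no match to the other motifs. The Slc5a1 sequence held 1 CACGTG, 200 bases before the start, and the Khk sequence held none of the 3 motifs. Of all 33469 RefSeq promoters of this length, 10.3% held AGATAA, 39.3% TTTAT and 5.59% CACGTG. A match here describes the letters only, and no match says only that they are not in this window.

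In the arrays labelled S3d, the glucose carrier Slc5a1 and the disaccharidase Treh were lower, the fructose carrier Slc2a5 was higher, Lct was higher by a narrow margin, Khk was slightly lower and Slc2a2 did not pass the test on its brighter probe. By the brightest probe of each gene, 5 of the 6 genes had an adjusted p under 0.05 in the limma fit over all probes tested, 2 of them higher and 3 lower. That fit called 73.9% of all 31424 probes tested, 39.4% higher and 34.5% lower, beside 83.3% of the 6 genes, and with so few genes nothing is read from the difference. The control and S3d arrays did not overlap in 5 of the 6 genes, against 78.9% of all probes. Of the 8 probes, 5 also reached a 1.5-fold difference, which is 62.5% against 52.5% of all probes. The median log2 fold change of the 6 genes was -0.39, beside 0.09 over all probes tested.

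**Figure D1:**
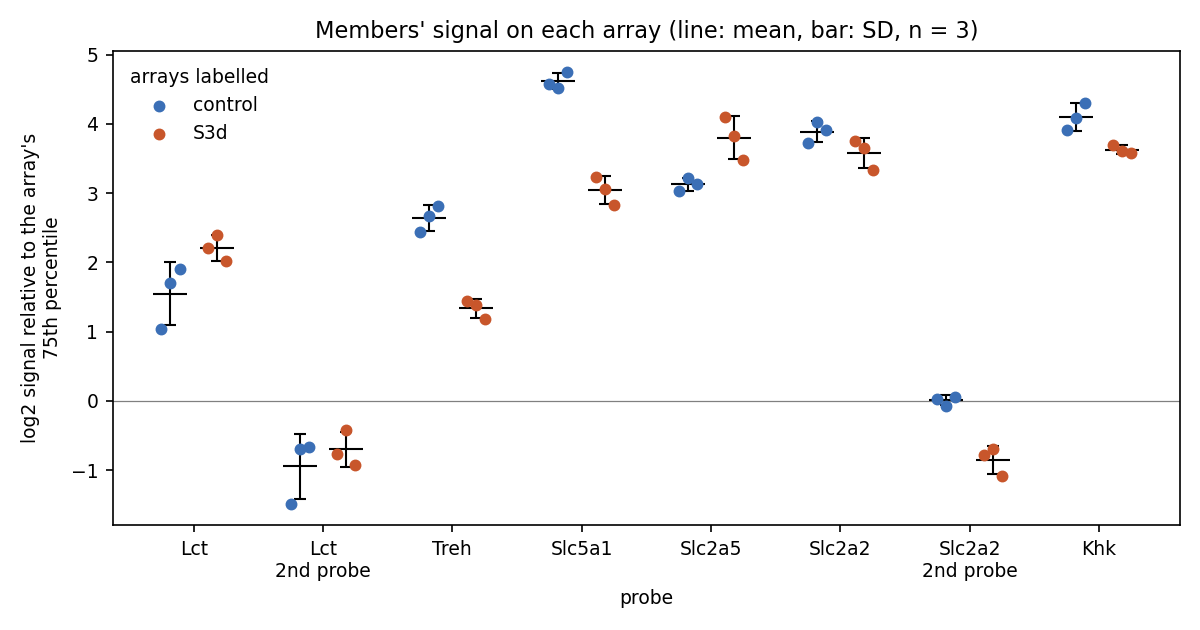
Log2 signal relative to the array's 75th percentile (vertical axis) for each of the 8 probes of the members (horizontal axis) on the 3 control (blue) and 3 S3d (orange) arrays, with the mean and SD of each group. The groups lie apart for Treh, Slc5a1, Slc2a5, Khk, the brighter Lct probe and the dimmer Slc2a2 probe; heights of different probes are not comparable.

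Lct encodes lactase-phlorizin hydrolase, which splits milk sugar and is used as a marker of the differentiated jejunal enterocyte. On its brighter probe (A_43_P15647) the log2 signal relative to the 75th percentile was 1.03, 1.71 and 1.91 on the control arrays and 2.21, 2.40 and 2.01 on the S3d arrays. Control replicate 1 was the lowest, and the highest control array was close to the lowest S3d array. The means were 1.55 ± 0.46 and 2.21 ± 0.19 (SD, n = 3), a log2 fold change of 0.66 with a standard error of 0.24 (adjusted p = 0.048). The other probe (A_44_P328028) was at -1.49, -0.69 and -0.67 on the control arrays and at -0.76, -0.42 and -0.92 on the S3d arrays, where the groups overlapped (0.24 ± 0.26 SE, adjusted p = 0.42). The Lct call was lost when any array other than control replicate 3 was left out, with the fold change between 0.40 and 0.75 and an adjusted p of up to 0.13 (0.84, adjusted p = 0.026, without control replicate 3), and it was lost with the mean of both probes (0.45, adjusted p = 0.15).

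Treh encodes trehalase, the brush border enzyme for the disaccharide of mushrooms and insects. Its signal (A_43_P15981) was 2.43, 2.67 and 2.81 on the control arrays and 1.44, 1.38 and 1.18 on the S3d arrays. All 3 S3d arrays were below all 3 control arrays, by more than the spread within either group. The means were 2.64 ± 0.19 and 1.33 ± 0.14 (SD, n = 3), a log2 fold change of -1.30 with a standard error of 0.12 (adjusted p = 0.00019), or 2.47-fold lower. The change was lower than that of all but 7.96% of the probes tested. The 2 disaccharidases that could be measured went opposite ways.

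Slc5a1 encodes SGLT1, which takes up glucose and galactose with sodium. Its signal (A_42_P753429) was 4.58, 4.52 and 4.74 on the control arrays and 3.24, 3.05 and 2.83 on the S3d arrays. The groups were far apart for the spread within them. The means were 4.62 ± 0.12 and 3.04 ± 0.20 (SD, n = 3), a log2 fold change of -1.57 with a standard error of 0.12 (adjusted p = 9.3e-05), or 2.98-fold lower. This was the lowest change among the members, below all but 5.06% of the probes tested.

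Slc2a5 encodes GLUT5, the fructose carrier of the brush border. Its signal (A_42_P520497) was 3.03, 3.21 and 3.13 on the control arrays and 4.09, 3.82 and 3.48 on the S3d arrays. All 3 S3d arrays were higher, with a wider spread among them. The means were 3.12 ± 0.09 and 3.80 ± 0.31 (SD, n = 3), a log2 fold change of 0.67 with a standard error of 0.16 (adjusted p = 0.0099), or 1.60-fold higher. The call held without any single array, with the fold change between 0.53 and 0.84. The spots of S3d replicates 1 and 2 were read from the scan at low gain and scaled up by the scanner software, and the lower S3d replicate 3 was not.

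Slc2a2 encodes GLUT2, the carrier through which hexoses leave the enterocyte. On its brighter probe (A_44_P226612) the signal was 3.73, 4.02 and 3.91 on the control arrays and 3.75, 3.65 and 3.33 on the S3d arrays, and the groups overlapped. The means were 3.89 ± 0.15 and 3.58 ± 0.22 (SD, n = 3), a log2 fold change of -0.31 with a standard error of 0.14 (adjusted p = 0.084) and a 95% interval from -0.64 to 0.03. S3d replicates 1 and 2 of this probe were read at low gain as well. On the dimmer probe (A_44_P488355) the signal was 0.03, -0.08 and 0.06 on the control arrays and -0.78, -0.70 and -1.09 on the S3d arrays, with no overlap (-0.86 ± 0.12 SE, adjusted p = 0.00085). The probes thus differed in size of change and in call, and with their mean Slc2a2 was called at -0.58 (adjusted p = 0.0044).

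Khk encodes ketohexokinase, the first enzyme of fructose breakdown. Its signal (A_44_P137681) was 3.91, 4.08 and 4.31 on the control arrays and 3.70, 3.60 and 3.58 on the S3d arrays. The S3d arrays were close together and all below the lowest control array. The means were 4.10 ± 0.20 and 3.63 ± 0.06 (SD, n = 3), a log2 fold change of -0.47 with a standard error of 0.11 (adjusted p = 0.0095). With quantile normalization the call was lost (-0.11, adjusted p = 0.42).

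**Figure D2:**
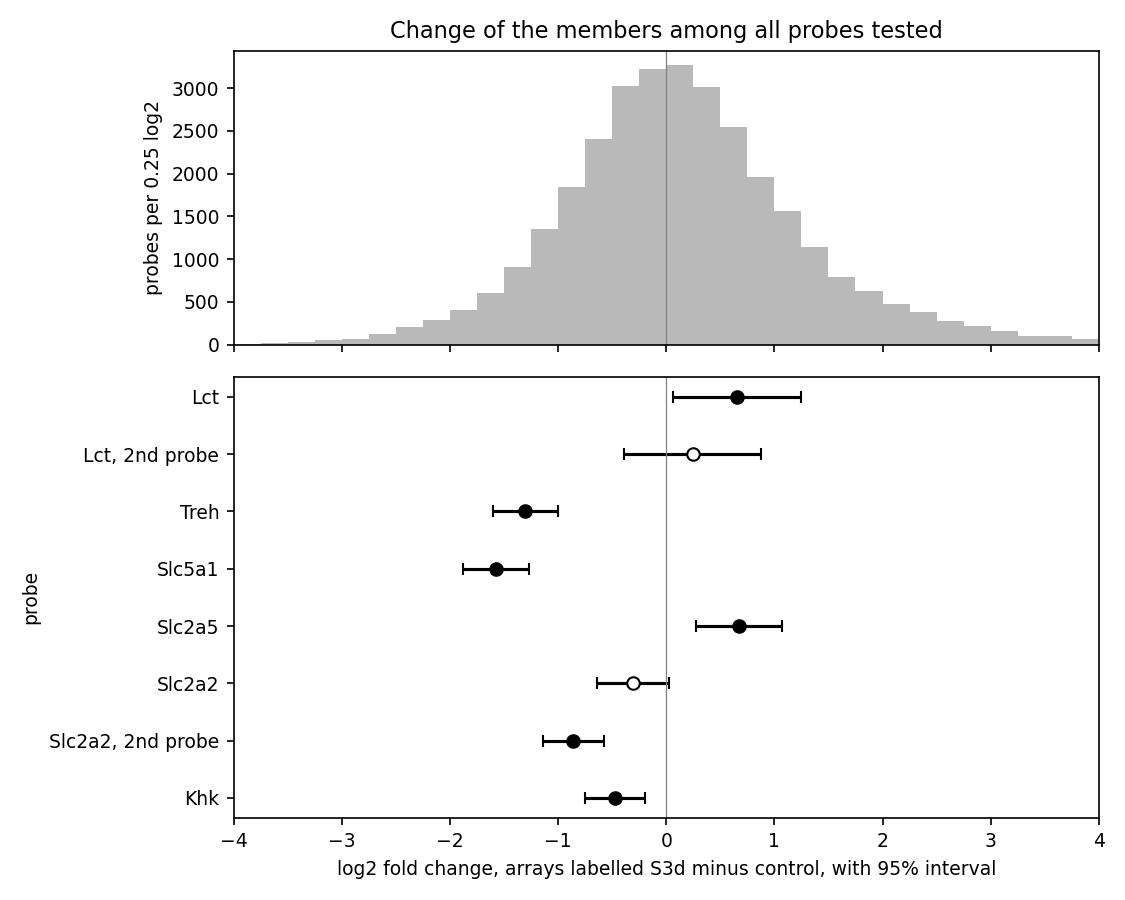
Upper plot, number of probes tested by log2 fold change in steps of 0.25; lower plot, log2 fold change of each member probe with its 95% interval from limma (filled, adjusted p under 0.05; open, not called). Slc5a1 (-1.57) and Treh (-1.30) lie in the lower flank of all probes and Slc2a5 (0.67) and Lct (0.66) inside the upper flank, and every sign but those of Lct and Slc2a5 turns when arrays are not scaled.

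Without the array that carried the pancreatic signal, S3d replicate 1, the fold changes were -1.36 for Treh, -1.67 for Slc5a1, 0.53 for Slc2a5, -0.51 for Khk, -0.39 for Slc2a2 and 0.66 for Lct. Of these, Treh, Slc5a1, Slc2a5 and Khk were still called (largest adjusted p = 0.018), and Lct was not (adjusted p = 0.097).

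The directions depended on how the arrays were brought to a common scale. Before any scaling, all 6 genes were brighter on the S3d arrays, by 5.67-fold for Lct and 5.74-fold for Slc2a5, 2.91-fold for Slc2a2, 2.59-fold for Khk, 1.46-fold for Treh and 1.21-fold for Slc5a1. The 75th percentile rose 3.60-fold, so Lct and Slc2a5 rose more than it and the other 4 genes less. Without scaling, and with scaling on the spike-ins, 5 genes were called and all were higher, and Slc5a1 was not called (0.27, adjusted p = 0.053, and 0.31, adjusted p = 0.14), while 94.2% and 93.5% of all probes were called higher. The split of calls over all probes moved as well with median centring (32.3% higher, 41.6% lower), with scaling on the enterocyte markers (62.9% and 14.7%), and with normexp background correction once 8 spots of control replicate 3 with a local background over 1000 were left out (21.0% and 60.4%). In the deposited log2 values, by their own labels, which called 69.9% of all probes, the changes were -0.77 for Lct, 1.17 for Treh, 1.24 for Slc5a1, -0.98 for Slc2a5, 0.11 for Khk and -0.03 for Slc2a2, of which the first 4 were called. In each of these 8 treatments of the data Slc5a1 and Treh stood at one end and Lct and Slc2a5 at the other. The 75th percentile, median, spike-in and enterocyte marker scalings and the lack of scaling differ by a single factor per array. That shifts all genes alike, so the order could not change among them. Only quantile normalization, normexp and the deposited values, which were quantile normalized, could have changed it.

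**Figure D3:**
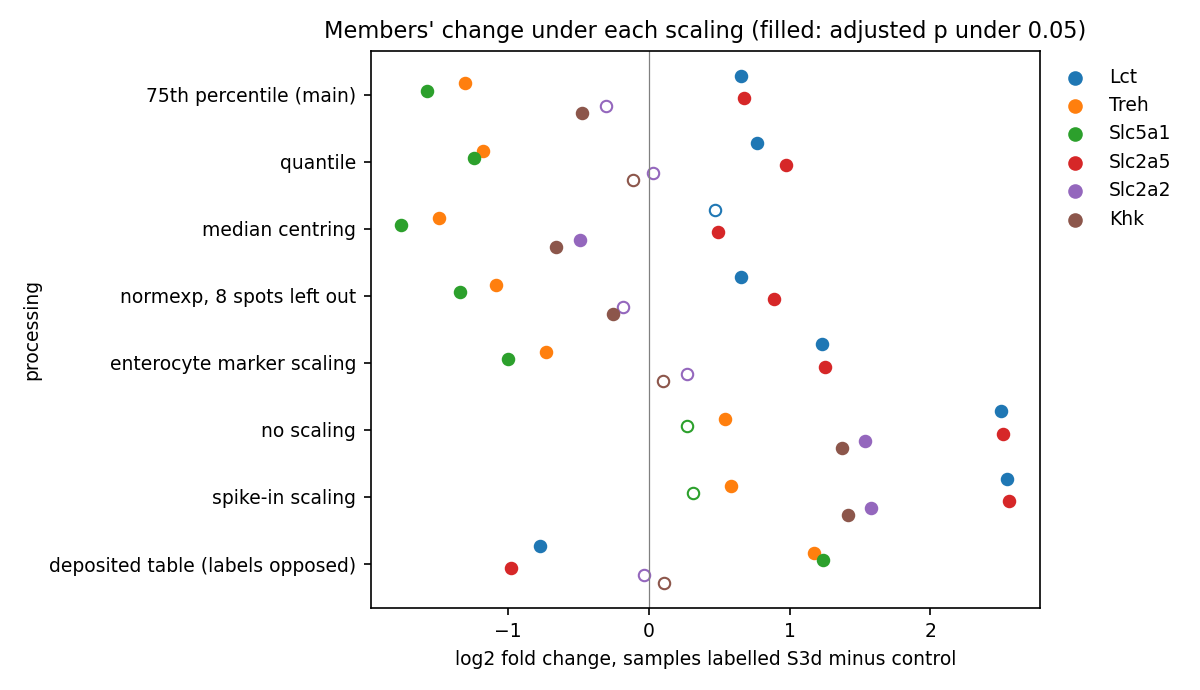
Log2 fold change by sample labels (horizontal axis) of each member's brightest probe under 8 ways of processing (vertical axis; filled, adjusted p under 0.05; open, not called). Slc5a1 and Treh lie at one end and Lct and Slc2a5 at the other throughout, an order that a single factor per array cannot change. All 6 genes lie above 0 without scaling or with spike-in scaling. The order is mirrored in the deposited values, whose labels oppose those of the scanner files.

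A ratio of 2 members within an array does not depend on scaling by a single factor per array, but it does change with quantile normalization. All 15 pairs were compared with an exact permutation test, two-sided, whose smallest possible p with 3 arrays against 3 is 0.1, so no pair could pass 0.05. In 13 pairs the ratios on the control and S3d arrays did not overlap (exact p = 0.1, 0.115 after Benjamini-Hochberg adjustment over the 15). The share among pairs of other probes was not computed. Since 78.9% of all single probes did not overlap either, nothing is read from this count. The widest gap was that of the glucose carrier against the fructose carrier. Relative to the control mean, the log2 ratio of Slc5a1 to Slc2a5 was 0.06, -0.19 and 0.13 on the control arrays and -2.35, -2.26 and -2.14 on the S3d arrays, a shift of -2.25 ± 0.11 (SE). The 2 disaccharidases moved apart nearly as far, with Lct gaining 1.96 ± 0.17 on Treh. Slc2a5 gained 0.98 ± 0.07 on Slc2a2 and 1.15 ± 0.18 on Khk. Treh and Slc5a1 differed by less, with Treh falling 0.27 ± 0.10 less than Slc5a1. With quantile normalization their fold changes lay closer together (Treh -1.17, Slc5a1 -1.24). The ratios of Lct to Slc2a5 (-0.02 ± 0.27) and of Slc2a2 to Khk (0.17 ± 0.14) overlapped between the groups.

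**Figure D4:**
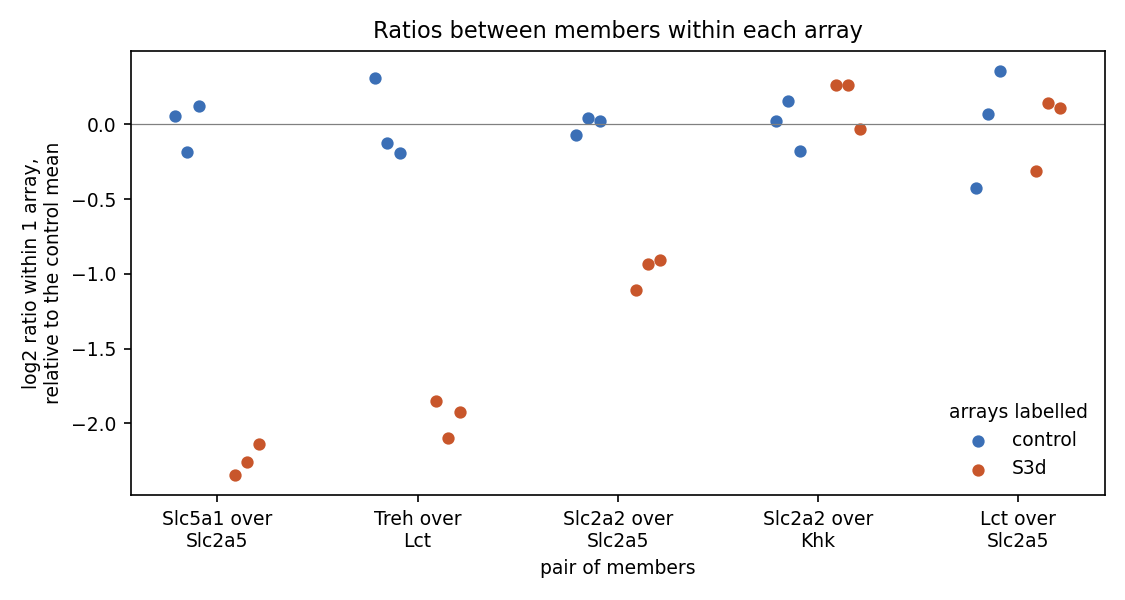
Log2 ratio of 2 members within each array, relative to the control mean of that ratio (vertical axis), for 5 of the 15 pairs (horizontal axis), with 3 control (blue) and 3 S3d (orange) arrays. The ratio of Slc5a1 to Slc2a5 shifted by -2.25 and that of Slc2a2 to Slc2a5 by -0.98 without overlap, whereas the ratios of Slc2a2 to Khk and of Lct to Slc2a5 overlap.

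The enterocytes that carry these proteins were followed by 18 markers. Of these, 13 were called, 12 lower and 1 higher, with a median of -0.63, although quantile normalization gave 7 higher and 3 lower, the lack of scaling 17 higher and 0 lower, and the deposited values 3 higher and 7 lower by its own labels. Their summed signal, in units of the 75th percentile, was 4573 to 5008 on the control arrays and 2138 to 2202 on the S3d arrays, and all were well above background on all 6 arrays. Fabp1, the fatty acid carrier of enterocytes, was at -1.64. Set against the mean of these 18 markers within each array, Lct (1.23) and Slc2a5 (1.25) were higher and Treh (-0.73) and Slc5a1 (-0.999) lower, with no overlap between the groups, and Slc2a2 (0.27) and Khk (0.10) overlapped. Of 7 genes that mark position along the gut, 2 were called higher and 3 lower. The ileal bile acid genes Fabp6 (-2.70) and Slc10a2 (-2.41) were lower, but so was Gata4 (-0.71), a factor of the upper intestine. The iron transport genes of the upper intestine, Slc40a1 (0.36) and Cybrd1 (0.61), were higher. The part of enterocyte number and of the sampled position in the members' changes was not tested.

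Other cell types moved too. Goblet cell markers were lower in 4 of 5 (Tff3, -2.13), Paneth cell markers in 4 of 5, leukocyte markers in 7 of 8 with 1 higher, and enteroendocrine markers in 4 of 7 with 2 higher. Of 9 crypt and proliferation markers 5 were higher and 4 lower, of 7 smooth muscle markers 2 were higher and 3 lower, and of 3 blood genes 2 were lower (Hbb, -3.76) and 1 higher. Without scaling each of these lists except the blood genes had more calls higher than lower, for example 3 higher and 1 lower of 5 goblet cell markers. Their part in the members' changes was not tested.

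Genes around the members were followed on 5 lists of 83 genes, of which 66 had a probe and 65 were tested. Of these, 47 were called, 18 higher and 29 lower, or 72.3% against 73.9% of all probes.

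Among 13 other hexose transporters, 4 were higher and 5 lower (median 0.01), against 3 and 4 with quantile normalization and 13 and 0 without scaling. The 3 with the largest changes were Slc2a1, which encodes the basal glucose carrier GLUT1 (2.77 on the control and 1.34 on the S3d arrays, -1.43 ± 0.08 SE, adjusted p = 2.5e-05), Slc5a2, which encodes the renal sodium-glucose carrier SGLT2 (1.39 ± 0.31, adjusted p = 0.0073), and Slc2a3, which encodes GLUT3 (-1.09 ± 0.11, adjusted p = 0.00022). The other probe of Slc5a2 was not called (0.54, adjusted p = 0.14).

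Among 18 enzymes through which fructose, galactose and glucose enter metabolism, 4 were higher and 6 lower (median -0.05), against 6 and 6 with quantile normalization and 17 and 0 without scaling. Of the hexokinases, which trap glucose as its phosphate, Hk1 was higher (1.44 ± 0.07 SE, adjusted p = 2.1e-05) and Hk2 lower (-1.41 ± 0.18, adjusted p = 0.00063). Mpi, the mannose phosphate isomerase, was lower (-1.09 ± 0.10, adjusted p = 0.00017). Among 8 other glycosidases, 3 were higher and 2 lower, led by the lysosomal galactosidase Gla (2.03 ± 0.09, adjusted p = 1.9e-05), the glucosylceramidase Gba2 (-0.83 ± 0.07, adjusted p = 9.8e-05) and the lysosomal galactosidase Glb1 (0.75 ± 0.06, adjusted p = 9.5e-05), and without scaling all 8 were higher. Pancreatic amylase Amy2a3 belonged to this list and was not called (6.69 ± 3.47, adjusted p = 0.13). Its signal was -7.84, -6.91 and -6.56 on the control arrays and 8.01, -4.45 and -4.80 on the S3d arrays. Most of the difference came from 1 array, and the other S3d arrays also lay above the control arrays. The probe was above background on 3 arrays.

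Among 17 regulators of these genes, 6 were higher and 8 lower (median -0.22), against 6 and 6 with quantile normalization and 14 and 0 without scaling. Hnf4a, a nuclear receptor of the enterocyte, went from 0.85 to -0.74 (-1.59 ± 0.06 SE, adjusted p = 1.4e-05), and its other probe was lower by less (-0.58). Gata6 (-1.76 ± 0.09, adjusted p = 2.1e-05) and Prdm1, which encodes the transcriptional repressor Blimp-1 (-1.84 ± 0.11, adjusted p = 3.9e-05), had the largest changes among the regulators above background on all 6 arrays. Trpm5 (2.09) and Gnat3 (1.79), of the taste signalling pathway, were among the 6 higher but above background on only 5 arrays. They are named after their values were seen. Both were dim on the control arrays (Trpm5 -5.80, -5.06 and -5.12, Gnat3 -5.65, -4.48 and -4.74), so no test is given for them. Tas1r3 of the same pathway was above background on 1 array and was not tested. The other probes of Gata6 were at -0.59 and -0.15, of which the latter was not called, and that of Prdm1 at -1.45. Mlxipl, which encodes ChREBP, was lower (-1.35 ± 0.08, adjusted p = 3.4e-05), whereas Txnip, a target of that factor that rises with glucose, was higher (1.29 ± 0.12, adjusted p = 0.00015). Gata4 (-0.71, adjusted p = 0.0012) and Cdx2 (-0.37, adjusted p = 0.0018) were lower. The sign of Cdx2 turned with scaling on the enterocyte markers, and the signs of both turned without scaling.

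The sodium gradient that drives SGLT1 was covered by 9 genes, all called, 1 higher and 8 lower (median -0.40), against 2 and 5 with quantile normalization, 2 and 3 with scaling on the enterocyte markers and 7 and 1 without scaling. Slc9a3, the brush border sodium-proton exchanger NHE3, went from 3.13 to 0.64 (-2.49 ± 0.20 SE, adjusted p = 0.00011). Fxyd3 (-1.88 ± 0.08, adjusted p = 1.6e-05) and Fxyd2 (-1.33 ± 0.11, adjusted p = 0.00011), which encode regulators of the sodium pump, were lower as well.

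**Figure D5:**
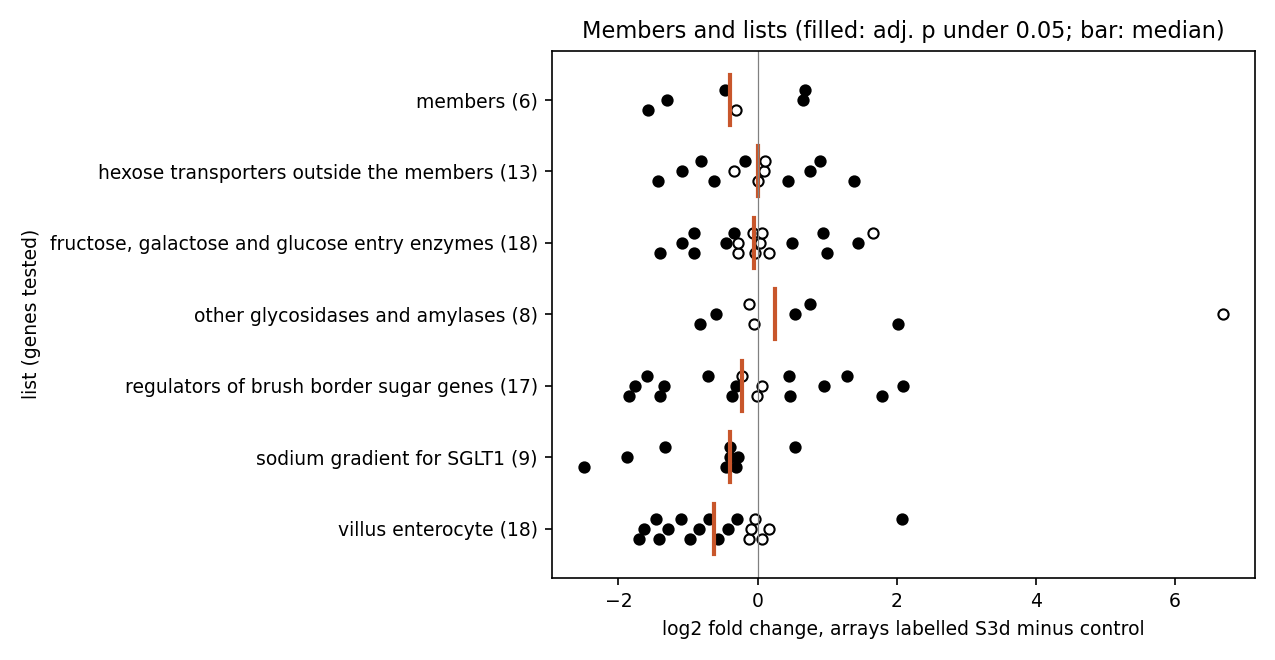
Log2 fold change (horizontal axis) of the 6 members and of each tested gene of the 5 related lists and of the villus enterocyte markers (vertical axis, number of genes tested in brackets), each by its brightest probe, filled when the adjusted p was under 0.05, with the list median as a bar. The members span -1.57 to 0.67, the lone point at 6.69 is Amy2a3, and without scaling nearly all points lie above 0.

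Across the 6 arrays, the genes whose centred signals ran closest to each member were found among 13366 genes, by the root mean square difference of the log2 values. Slc2a5 was followed most closely by Ces2h (0.055) and Ces2e (0.063), both of which encode carboxylesterases. Slc5a1 was followed by RatNP-3b, a neutrophil defensin (0.054), and Parvb (0.060), Treh by Cdip1 (0.047) and the phospholipase Pla2g10 (0.047), and Khk by Oxct2b (0.049) and the retinol dehydrogenase-reductase Dhrs3 (0.051). The closest genes to Slc2a2 were Pgpep1 (0.049) and Qprt (0.059), and those to Lct, which varied most among the control arrays, were Appl2 (0.11) and Ppp1r36 (0.11). These are descriptions over 6 arrays in 2 groups, and any gene with a like difference between the groups ranks high.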

How the data were processed

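Expression was measured in rat jejunum on 3 control and 3 S3d arrays. The authors deposited scanner files of Agilent Feature Extraction 10.7.3.1 with intensity values (processed signal, already background corrected, and spot and local background medians) and a table of log2 values that had been quantile normalized. Groups follow the scanner files' labels. Here log2 processed signal was taken relative to each array's 75th percentile, outlier spots were dropped and replicate spots averaged. The filter kept the 31424 of 41012 probes whose signal was well above background on every array of at least 1 group, which were tested with limma 3.58.1 in R 4.3.3 without a block, with Benjamini-Hochberg adjustment. A probe was called at an adjusted p under 0.05 and changed when the difference was also at least 1.5-fold. A gene was read from its brightest probe. Accessions were matched to 13837 gene symbols in RefSeq's GRCr8 tables. The script was tested on simulated data.

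The members and lists were chosen with earlier results of these data known. From each of the 5 related lists (83 genes), up to 3 called genes with the largest change, measured above background throughout and with no overlap between groups, were named, beside Slc2a1, Hnf4a, Cdx2, Gata4, Mlxipl, Txnip and 3 genes whose values are not reported here. The labels give 10 rats per group and the study's methods 6, with which pools of 3 would share rats, so p-values measure the spread between these pools. The number of arrays, 3 per group, limits the precision. Alternatives were other scalings, normexp, filters, outliers kept, the deposited table, a replicate block, a trend, array weights, one-way ANOVA, the mean of all probes, and leaving out each array.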

Additional observations from a re-analysis of the deposited data

How the results depend on the processing

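The fold changes of Treh and Slc5a1 kept their sign and call under median centring, quantile normalization, scaling on the enterocyte markers, both other filters, outlier spots kept, the replicate block, an intensity trend, array weights, one-way ANOVA and the loss of any array. The changes that turned their sign were the following. Without scaling they were 0.54 (Treh), 0.27 (Slc5a1), 1.54 (Slc2a2) and 1.37 (Khk), and with spike-in scaling 0.58, 0.31, 1.58 and 1.41, since every value then rises with the overall brightness. With the deposited values they were -0.77 (Lct), 1.17 (Treh), 1.24 (Slc5a1), -0.98 (Slc2a5) and 0.11 (Khk), whose labels are opposed. Slc2a2 was at 0.027 with quantile normalization, and with scaling on the enterocyte markers Slc2a2 was at 0.27 and Khk at 0.10. With normexp on all spots Slc2a2 was at 0.24 and Khk at 0.17, with its maximum likelihood fit at 0.25 and 0.18, and with its RMA-75 estimates at 1.12 and 1.07, with Slc5a1 at 0.18. The members called by limma were 0 with each of these 3 (3, 3 and 1 at an unadjusted p under 0.05), the changed probes 1737, 1691 and 0 in place of 16488 (12023, 11909 and 6590 at an unadjusted p under 0.05), and the related genes called 3, 3 and 0 in place of 47. On control replicate 3 normexp placed the background at -841, against -12.8 to -5.51 on the other arrays, and without the 8 spots of high local background at -10.6, with 5 members, 16199 probes and 44 related genes. Changed probes numbered 28951 without scaling and 29193 with spike-in scaling. Leaving out each array gave 16017 to 16486 changed probes and 4 to 5 members.

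With a replicate block 4 members were called, since Lct was lost (adjusted p = 0.067). Same-numbered arrays did not deviate together (correlation -0.09 to 0.06), so the number pairs nothing. Lct was also lost with median centring, no filter, outlier spots kept and one-way ANOVA, and Slc2a2 was gained with median centring, an intensity trend and array weights. Spike-in scaling, scaling on the enterocyte markers and the last 3 forms of normexp were chosen after seeing the data. A slide block could not be run, since no slide holds both groups. An array reads only relative signal, and 9588 dim probes were not tested.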
